A study of Mus musculus with 2 samples.

Results

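Binding of Gata3 was examined at 10 cytokine genes outside the Il4, Il13 and Il5 locus, out of 21938 protein-coding genes of GENCODE M21 (GRCm38). They are Il10 and its neighbours Il19, Il20 and Il24, the adjacent pair Il3 and Csf2, and Il9, Il6, Il31 and Il2. The members were chosen by name, with earlier results of these data known. Each was taken as its gene body with 30 kb either side. The regions of neighbouring members overlap, so the 10 genes form 7 separate loci with 528 kb in all. The data are 2 Gata3 ChIP-seq libraries of mouse TH2 cells differentiated in vitro, numbered 1 and 2 in the labels as replicates of a single condition. The paper's culture methods start from naive splenic T cells. These received stimulating antibodies, polarising cytokines and a neutralising antibody against IFN-γ. The labels give no genotype, strain, age or treatment for the mice. The paper gives a common background strain for its mouse lines, but does not name the line used for ChIP-seq. The labels do not say whether the libraries came from separate cultures, so the spread between the libraries may be technical. The extraction protocol of the labels names ILC2, a type of innate lymphocyte, where the other fields name TH2 cells. The reads measure DNA and not RNA, so the cell type could not be checked against expressed markers, and no group was compared with another.

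Gata3 is the zinc finger transcription factor that directs TH2 differentiation, and it recognises short sequences with the core GATA in regulatory DNA. It opens and activates the Il4, Il13 and Il5 locus, and it is known to act at other cytokine genes through enhancers that lie away from the start site. Cytokines of the IL-10 family share a helical fold. IL-10 itself restrains inflammation, whereas IL-19, IL-20 and IL-24 act mainly on epithelial cells. IL-3 and GM-CSF, the product of Csf2, are haematopoietic growth factors that signal through a common beta chain, and IL-2 and IL-9 signal through the common gamma chain.

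Library 1 held 40504814 reads on chromosomes 1 to 19, X and Y and library 2 held 24959052, a mean of 2.97 and 1.83 reads per 200 bp. Reads were counted in 200-bp windows and scaled to reads per 1000000 reads of the library (RPM). The local background of a window was its expected count, from the whole library or from 5 or 10 kb of surrounding sequence, whichever gave most. Windows above it at a Benjamini-Hochberg q of 0.01 were called (exact Poisson test, one-sided). Empty windows were left out, which left 39497351 to test for library 1 and 35250442 for library 2. Of the tested windows 0.963% were called for library 1 and 0.391% for library 2. Called windows were joined to peaks, and a peak is termed shared where peaks of both libraries overlap. Each peak is placed by its library 1 summit, and its reads are those of the highest 200-bp window of each library, which may lie apart. Intervals given with RPM are 95% exact Poisson intervals and cover counting error only. No input library was used here, and the part of chromatin accessibility in the peaks was not tested.

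All 10 genes had a shared peak in their region, against 62.1% of all protein-coding genes, and against 48.2% of the 5823 genes whose regions were within the range of lengths of these 10. In total 22 shared peaks lay in the 7 loci. This is 4.17 per 100 kb, where the genome as a whole had 0.873. The genome value also counts sequence far from any gene, and a rate over gene regions alone was not taken. The number per gene went from 8 at Csf2 and 6 at Il3 through 4 each at Il10, Il20 and Il24 and 2 each at Il9 and Il2 to 1 each at Il19, Il6 and Il31. Among all genes the median was 1, 10.9% had 4 or more and 1.56% had 8 or more. Of the 22 summits 19 were intergenic and 3 lay in introns, and 11 were upstream and 11 downstream of the start of the nearest member. Within the gene bodies of the members themselves there were 2 shared peaks, in Il10 and in Il24 (2 of 10 genes, against 29.4% of all genes and 7.68% of genes with regions of like length). Within 2 kb of the start site 2 of the 10 genes, Il6 and Csf2, had a shared peak, against 11.7% of all genes. The counts depended on the threshold. With a minimum of 5-fold over the local background the 22 peaks became 4. By that setting 4 of the 10 genes had a shared peak in their region, against 29.8% of all genes. With a q of 1e-10 it was 7 of the 10, without Il10, Il31 and Il2, against 23.8% of all genes.

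**Figure D1:**
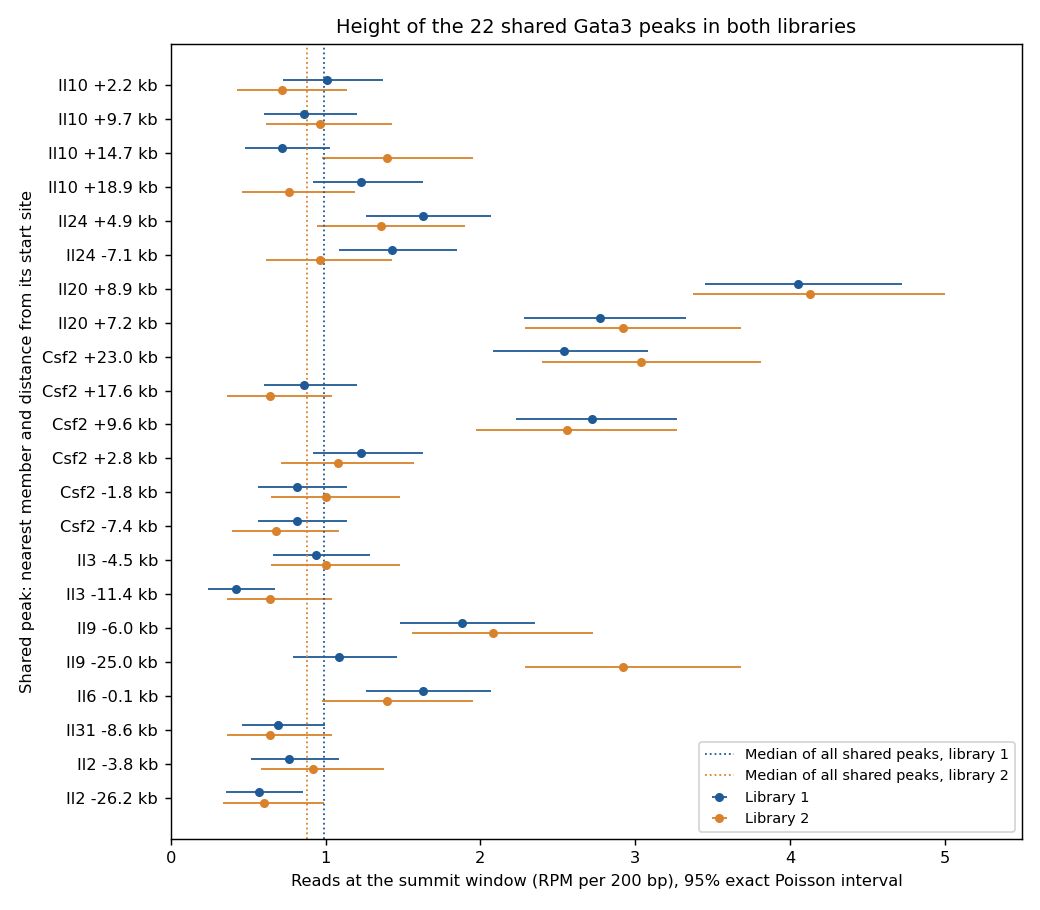
Each row is 1 of the 22 shared peaks, named by the nearest of the 10 genes and the distance of the summit from its start site in kb. Points are RPM per 200 bp at the summit of library 1 (blue) and library 2 (orange), bars are 95% exact Poisson intervals, and dotted lines mark the medians of all 23806 shared peaks, 0.988 and 0.881 RPM. The peak 8.9 kb from the start of Il20 is the tallest in both libraries, and the intervals of the libraries overlap at 21 of the 22 peaks, the exception being the peak 25 kb upstream of Il9.

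The height of a shared peak was taken as the lower of its RPM in the 2 libraries. Over the 22 peaks it had a median of 0.901 RPM, against 0.801 RPM over all 23806 shared peaks, and 13 of the 22 lay above the latter. The heights differed strongly between loci. The tallest stood between Il20 and Il24, followed by peaks downstream of Csf2 and upstream of Il9, whereas the peaks of Il10, Il31 and Il2 were near or under the median of all shared peaks. At every one of the 22 summits each strand held at least 25% of the reads in both libraries.

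Il24, Il20 and Il19 lie in this order on the minus strand of chromosome 1, from 130882074 to 130887454, from 130906985 to 130911451 and from 130932656 to 130940115. Their locus held 4 shared peaks, and the group was dominated by a pair of tall ones in the intergenic sequence downstream of Il20. The summit at 130902600, which is 8851 bp beyond the start of Il20 and 15146 bp upstream of the start of Il24, had 164 reads in library 1 against 103 in library 2. This is 4.05 RPM (3.45 to 4.72) and 4.13 RPM (3.37 to 5.00), so the libraries differed by less than their counting error. It stood 4.61-fold and 4.29-fold over its local background, with exact Poisson p = 3.7e-55 and 7.2e-33 (one-sided) and at the 99.2 percentile of shared peaks. That background also counts the reads of both tall peaks. Against the sequence 1 to 5 kb to either side, which still holds the second of the pair, the summit was 12.1-fold and 11.5-fold higher. With a minimum of 5-fold over the local background no peak of this locus was called in both libraries.

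The second of the pair had its summit at 130904250 in library 1 and 250 bp away at 130904500 in library 2. It held 112 and 73 reads, or 2.77 RPM (2.28 to 3.33) and 2.92 RPM (2.29 to 3.68), at the 95.7 percentile of shared peaks. This is the only shared peak of Il19, whose region it enters at its far end, 35865 bp beyond the start of the gene, and the taller peak of the pair lies 56 bp outside that region. Il19 had no shared peak with flanks of 10 kb, or when the summits of both libraries had to lie within 100 bp. With a 50-kb background it had 3, 1 of them at its promoter, and with flanks of 100 kb it had 14. Library 1 alone had 6 peaks in the region, also with 1 at the promoter. Outside the other end of the region a low shared peak lay 31235 bp upstream of the start, with 18 and 24 reads (0.444 and 0.962 RPM). The remaining shared peaks were lower. The summit in intron 5 of Il24, at 130882550, held 66 and 34 reads (1.63 and 1.36 RPM). The summit 7146 bp upstream of Il24, at 130894600, held 58 and 24 reads (1.43 and 0.962 RPM).

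The sequence around the tallest summit of the locus is given because it carries the highest read count of all 10 genes. Capitals mark a match to the sequence bound by GATA factors, WGATAR, on either strand, where W is A or T and R is A or G. Here it is CTATCT, the reverse complement of AGATAG, 8 bp from the summit. An AP-1 sequence, TGACTCA, follows 80 bp after the summit in lower case.
Il20 downstream peak (chr1:130902500-130902700, plus strand): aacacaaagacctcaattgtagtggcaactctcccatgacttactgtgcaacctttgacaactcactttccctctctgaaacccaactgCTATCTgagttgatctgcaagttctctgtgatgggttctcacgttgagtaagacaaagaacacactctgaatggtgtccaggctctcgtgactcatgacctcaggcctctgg

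**Figure D2:**
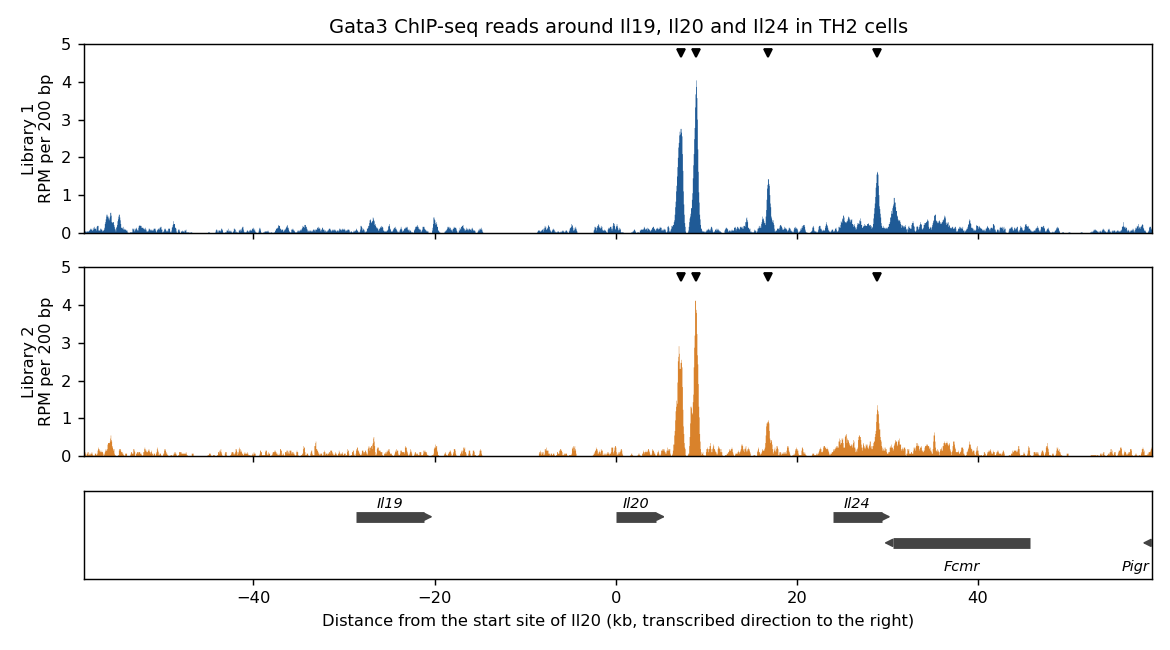
RPM per 200 bp (vertical axis) over Il19, Il20, Il24 and 30 kb either side, against the distance from the start of Il20 in kb, with transcription to the right, in library 1 (top) and library 2 (middle). Triangles mark the 4 shared peaks and bars the protein-coding genes. The pair of peaks downstream of Il20 rises to 4.05 and 2.77 RPM in library 1 and to 4.13 and 2.92 RPM in library 2, and no shared peak is marked near Il19.

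Il10 occupies chromosome 1 from 131019845 to 131024974, on the plus strand. It had 4 shared peaks, none of them tall, in intron 3 and in the intergenic sequence downstream of the gene. The summit in intron 3, at 131022050 and 2205 bp beyond the start, held 41 reads in library 1 and 18 in library 2, or 1.01 RPM (0.726 to 1.37) and 0.721 RPM (0.427 to 1.14). The tallest by the lower of the libraries was at 131029500, 9655 bp beyond the start, with 35 and 24 reads, or 0.864 RPM (0.602 to 1.2) and 0.962 RPM (0.616 to 1.43). It was 4.07-fold and 3.41-fold over its local background, with exact Poisson p = 1.2e-11 and 4.3e-07 (one-sided) and at the 55.5 percentile of shared peaks.

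The last 2 peaks of Il10 were uneven between the libraries. At 131034550 there were 29 reads in library 1 and 35 in library 2 (0.716 and 1.4 RPM), and the last peak had 50 reads at its library 1 summit, 131038700, and 19 at its library 2 summit, 131038400 (1.23 and 0.761 RPM). The test between libraries counts reads over the same span around both summits. At the last peak this span held 88 reads in library 1 and 41 in library 2. Neither peak passed the test (two-sided exact binomial test, Benjamini-Hochberg adjusted over all shared peaks, adjusted p = 0.155 and 0.554). The peaks of Il10 were thus of middling height, whereas the read density of the whole region ranked high. The region held 2.52 times the library mean in library 1 and 2.75 times in library 2, at the 99.1 percentile of protein-coding genes, whose medians were 1.36 and 1.33. Counting only sequence 1 kb or more from any shared summit, it still held 2.01 and 2.27 times the mean, at the 99.7 percentile, where the median gene had 1.26 and 1.24. The start site of Il10 was low, with 3 reads in each library in the 200-bp window centred on it, or 0.0741 RPM (0.0153 to 0.216) and 0.12 RPM (0.0248 to 0.351).

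A taller shared peak stood 395 bp outside the upstream end of the Il10 region, 30395 bp before the start, with 123 and 55 reads (3.04 and 2.20 RPM, 92.3 percentile), and the count at Il10 therefore depends on where the region ends. With the flank set to 100 kb, Il10 had 11 shared peaks. Il10 had 0 shared peaks when the q was set to 1e-10, and also when peaks had to reach 5-fold over background. The sequence of the peak 9655 bp beyond the start is shown as the tallest of the locus. It holds AGATAA at the summit, AGATAG 84 bp before it and, between them, TTCCTGGAA, a match to the sequence bound by STAT factors (TTCNNNGAA, or the same with 4 bases between the arms), 11 bp before the summit.
Il10 downstream peak (chr1:131029400-131029600, plus strand): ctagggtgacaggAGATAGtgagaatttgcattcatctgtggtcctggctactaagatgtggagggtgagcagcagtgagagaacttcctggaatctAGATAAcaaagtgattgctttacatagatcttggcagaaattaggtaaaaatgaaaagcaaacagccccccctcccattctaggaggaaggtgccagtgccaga

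Il3 and Csf2 follow each other on the minus strand of chromosome 11, from 54265303 to 54267277 and from 54247271 to 54249667. Their shared locus of 80.0 kb held 8 peaks, or 10.0 per 100 kb, more than any other of the 7 loci, and no other protein-coding gene lies in it. The count and its rank depended on the threshold. With a q of 1e-10 Csf2 had 2 shared peaks, as did Il9 in its shorter locus of 63 kb. With a minimum of 5-fold Csf2 had 1, where Il9 had 2. Csf2 had 4 with 100-bp windows or with summits required to lie within 100 bp. Il3 had 1, 1, 3 and 3 under these settings in the same order. The peaks were spread over both sides of Csf2, which had all 8 in its region, and upstream of Il3. The tallest, at 54240100 and 9567 bp beyond the start of Csf2, held 110 reads in library 1 and 64 in library 2, or 2.72 RPM (2.23 to 3.27) and 2.56 RPM (1.97 to 3.27). It was 6.72-fold and 6.40-fold over its local background, with exact Poisson p = 1.9e-52 and 4.2e-30 (one-sided), at the 94.8 percentile, and its summit was at the same position in both libraries. The peak furthest downstream, at 54226650 and 23017 bp beyond the start of Csf2, was as tall, with 103 and 76 reads, or 2.54 RPM (2.08 to 3.08) and 3.04 RPM (2.40 to 3.81).

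The other 6 peaks of the locus were between 0.420 and 1.23 RPM in library 1 and between 0.641 and 1.08 RPM in library 2. One of them lies at the Csf2 promoter, at 54251450 and 1783 bp upstream of the start, with 33 and 25 reads (0.815 and 1 RPM, 2.86-fold and 3.63-fold over the local background). It was lost with a promoter of 1 kb either side, with 100-bp windows, and when the q was 1e-10 or 5-fold over background was required. Of the peaks nearest to Il3, the taller was 4473 bp upstream of its start, with 38 and 25 reads (0.938 and 1 RPM), and the lowest peak of the locus was 11423 bp upstream, with 17 and 16 reads (0.420 and 0.641 RPM). As at Il10, the density of reads was raised over the whole of the Csf2 region, at 3.29 and 3.18 times the library mean (99.8 percentile of genes). It was 2.08 and 2.03 times the mean away from the shared summits.

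GATA matches lay within 100 bp of 6 of the 8 summits. The sequences are those of the tallest peak, of the summit between Il3 and Csf2 with the most GATA matches of all 22, and of the promoter summit. In the tallest, TGATAG lies 77 bp before the summit and shares its last 2 bases with AGATAA, which lies 73 bp before it. The second, at 54257050 and 7383 bp upstream of Csf2, has 4 matches but was a low peak, with 33 and 17 reads (0.815 and 0.681 RPM). It was chosen for display after its values were seen. The promoter summit has no match, and therefore no capitals.
Csf2 downstream peak (chr11:54240000-54240200, plus strand): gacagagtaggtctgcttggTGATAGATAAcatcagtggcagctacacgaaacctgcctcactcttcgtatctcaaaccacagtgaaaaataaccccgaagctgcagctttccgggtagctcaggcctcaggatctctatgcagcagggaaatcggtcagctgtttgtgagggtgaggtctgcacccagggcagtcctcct
Il3 to Csf2 intergenic peak (chr11:54256950-54257150, plus strand): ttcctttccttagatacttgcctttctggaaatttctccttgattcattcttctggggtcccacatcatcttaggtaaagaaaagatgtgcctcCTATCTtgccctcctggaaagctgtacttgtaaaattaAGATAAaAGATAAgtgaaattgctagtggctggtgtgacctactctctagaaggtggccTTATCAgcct
Csf2 promoter peak (chr11:54251350-54251550, plus strand): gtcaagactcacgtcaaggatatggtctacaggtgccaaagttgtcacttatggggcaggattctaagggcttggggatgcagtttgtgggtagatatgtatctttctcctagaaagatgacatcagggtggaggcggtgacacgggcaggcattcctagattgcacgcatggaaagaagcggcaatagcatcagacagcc

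**Figure D3:**
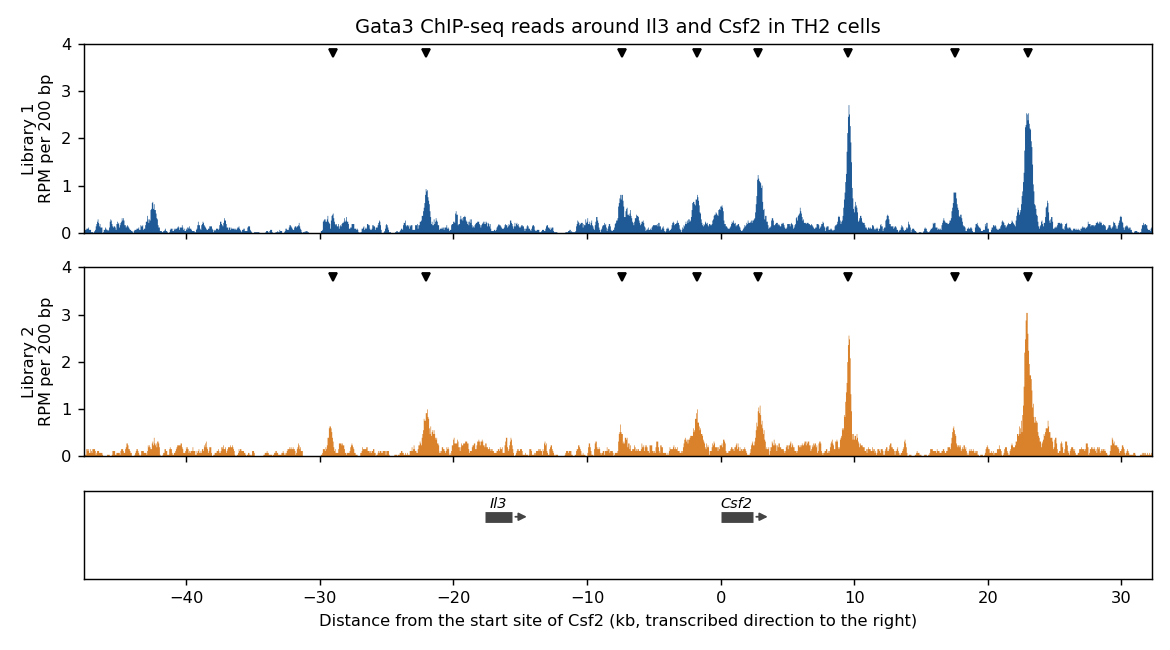
RPM per 200 bp over Il3, Csf2 and 30 kb either side, against the distance from the start of Csf2 in kb, with transcription to the right, in library 1 (top) and library 2 (middle). Triangles mark the 8 shared peaks and bars the 2 genes. The peaks 9567 and 23017 bp beyond the start of Csf2 reach 2.54 RPM or more in both libraries and the others stay at or below 1.23 RPM.

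Il9, which encodes a growth factor for mast cells and T cells, lies on the minus strand of chromosome 13 from 56479277 to 56482246. It had 2 shared peaks, both upstream. The nearer, at 56488250 and 6004 bp before the start, held 76 reads in library 1 and 52 in library 2, or 1.88 RPM (1.48 to 2.35) and 2.08 RPM (1.56 to 2.73). It was 5.88-fold and 5.16-fold over its local background, with exact Poisson p = 4.5e-33 and 9.7e-21 (one-sided), at the 88.6 percentile, and 34.9-fold and 26.7-fold over the sequence 1 to 5 kb away. These were the highest values of the 22 peaks by the latter measure.

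The farther peak, at 56507250 and 25004 bp before the start, was the only 1 of the 22 that differed between the libraries. The start of another gene, Fbxl21, is nearer to it, at 15222 bp. Its summit held 44 reads in library 1, or 1.09 RPM (0.789 to 1.46), and 73 reads in library 2, or 2.92 RPM (2.29 to 3.68). Over the same span around both summits library 1 had 52 reads and library 2 had 87, so that the RPM of library 1 was 0.368 of that of library 2 (two-sided exact binomial test, Benjamini-Hochberg adjusted over 23806 peaks, adjusted p = 2.1e-05). Among all shared peaks 2.29% differed by this test, 1.29% being higher in library 1 and 0.991% in library 2. The test compares these 2 libraries and not conditions, and the libraries were read on different sequencers according to their read names. Both Il9 peaks were kept with a q of 1e-10 and with a minimum of 5-fold, whereas 400-bp windows gave 4 shared peaks at Il9 and library 1 alone had 5. Library 1 was higher at the nearer than at the farther peak, whereas the intervals of the 2 peaks overlapped in library 2.

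Both sequences are shown, the first as the tallest of the locus and the second for the difference between libraries. The nearer summit has CTATCT 33 bp and AGATAA 88 bp after it, and the AP-1 sequence TGACTCA 34 bp before it. The farther summit has CTATCT 87 bp after it and TTCATGGAA, a match to the STAT sequence, 48 bp after it.
Il9 nearer upstream peak (chr13:56488150-56488350, plus strand): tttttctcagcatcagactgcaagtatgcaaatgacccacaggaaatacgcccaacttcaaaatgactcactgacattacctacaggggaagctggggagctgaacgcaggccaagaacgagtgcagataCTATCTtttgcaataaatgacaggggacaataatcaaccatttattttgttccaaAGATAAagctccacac
Il9 farther upstream peak (chr13:56507150-56507350, plus strand): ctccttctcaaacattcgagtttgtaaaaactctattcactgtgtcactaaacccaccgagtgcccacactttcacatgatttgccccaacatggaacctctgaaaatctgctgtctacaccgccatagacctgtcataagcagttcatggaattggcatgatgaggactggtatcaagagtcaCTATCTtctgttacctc

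Il6 encodes a cytokine of innate and adaptive cells that signals through gp130, and occupies chromosome 5 from 30013114 to 30019981, on the plus strand. It was the only gene of the 10 with a shared peak at the start site itself. The summit was at 30013000 in both libraries, 114 bp upstream of the start, with 66 reads in library 1 and 35 in library 2, or 1.63 RPM (1.26 to 2.07) and 1.4 RPM (0.977 to 1.95). It was 5.77-fold and 5.61-fold over its local background, with exact Poisson p = 1.7e-28 and 1.5e-15 (one-sided), at the 80.6 percentile of shared peaks, and was called under each of the peak settings and in each library alone. The 200-bp window centred on the start held 56 and 34 reads, 18.8 and 18.6 times the library mean, which is the 99.5 percentile of protein-coding genes.

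The peak stood in an otherwise poor region. Reads over Il6 and its flanks were 0.922 and 0.776 of the library mean, at the 20.2 percentile of genes, and 34.7% of its 200-bp windows had no read in either library. In such windows a lack of binding could not be told apart from sequence where reads cannot be mapped. Mappability was not examined. The sequence of the summit is given because it is that of a promoter, ending just before the annotated start. Its match, TTATCA, lies 62 bp after the summit.
Il6 promoter peak (chr5:30012900-30013100, plus strand): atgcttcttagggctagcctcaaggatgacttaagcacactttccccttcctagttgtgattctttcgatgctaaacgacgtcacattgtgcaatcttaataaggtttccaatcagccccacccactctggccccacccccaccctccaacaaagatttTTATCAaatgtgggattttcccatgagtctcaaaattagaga

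The tallest peaks of Il2 and Il31 were the lowest among the 10 genes. Il2, the T cell growth factor gene, lies on the minus strand of chromosome 3 from 37120523 to 37125959. Its peaks were 3841 bp upstream of the start, with 31 and 23 reads (0.765 and 0.922 RPM, 2.60-fold and 3.76-fold over background, exact Poisson p = 3.0e-06 and 1.4e-07, one-sided), and 26241 bp upstream, with 23 and 15 reads (0.568 and 0.601 RPM). The window on the start site was not part of a shared peak but held 26 and 14 reads, or 0.642 RPM (0.419 to 0.941) and 0.561 RPM (0.307 to 0.941), at the 98.0 percentile of genes. Library 1 alone had a peak 441 bp upstream of the start, and with 400-bp windows, or with a 50-kb background, the promoter of Il2 had a shared peak.

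Il31 encodes a cytokine that causes itch, and lies on the minus strand of chromosome 5 from 123480157 to 123489489 among 5 other protein-coding genes. Its shared peak, 8611 bp upstream of the start, lies in intron 4 of Lrrc43 and held 28 and 16 reads, or 0.691 RPM (0.459 to 0.999) and 0.641 RPM (0.366 to 1.04), at the 32.5 percentile. It was lost with 100-bp windows, and both it and the 2 peaks of Il2 were lost with a q of 1e-10 or a minimum of 5-fold. The sequences are the tallest of each locus, with TGATAG 16 bp after the summit at Il2, and AGATAG 47 bp before and TTATCA 74 bp after the summit at Il31.
Il2 upstream peak (chr3:37129700-37129900, plus strand): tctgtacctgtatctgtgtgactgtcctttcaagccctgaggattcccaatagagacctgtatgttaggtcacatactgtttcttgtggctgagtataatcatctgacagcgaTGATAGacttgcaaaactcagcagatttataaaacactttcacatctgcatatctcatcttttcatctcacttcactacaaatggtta
Il31 upstream peak (chr5:123498000-123498200, plus strand): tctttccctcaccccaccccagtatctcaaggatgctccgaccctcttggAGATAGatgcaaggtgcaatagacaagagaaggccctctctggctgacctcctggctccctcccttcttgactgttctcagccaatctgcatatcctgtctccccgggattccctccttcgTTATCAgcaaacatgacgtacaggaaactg

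**Figure D4:**
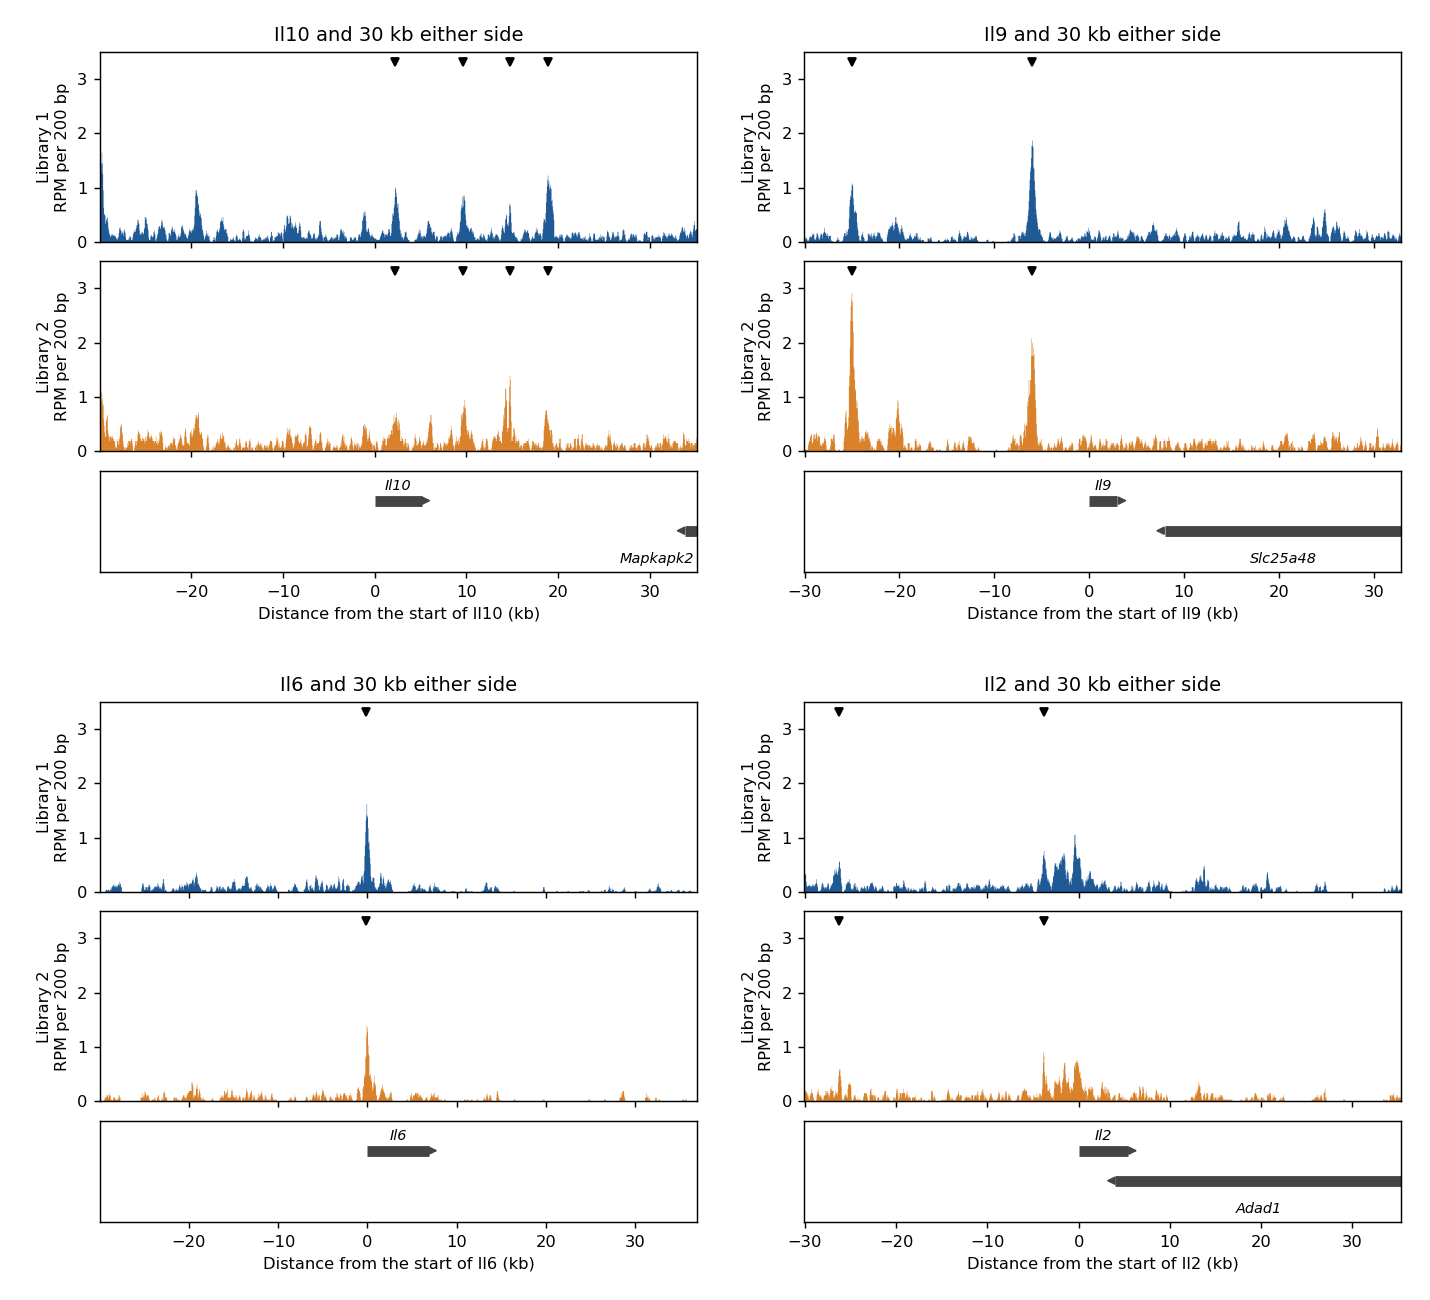
RPM per 200 bp around Il10, Il9, Il6 and Il2, each against the distance from its own start in kb with transcription to the right, in library 1 (blue) and library 2 (orange), all on the same vertical scale. Triangles mark shared peaks and bars the protein-coding genes. The peak farther from Il9 is lower in library 1 (1.09 RPM) than in library 2 (2.92 RPM), Il6 has a single peak at its start, and the 4 shared peaks of Il10 reach 1.23 RPM at most in library 1 and 1.4 RPM in library 2.

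The start sites were then compared over all 10 genes, by the 200-bp window centred on each. Il6 was highest, at 1.38 RPM (1.04 to 1.80) in library 1 and 1.36 RPM (0.943 to 1.90) in library 2. Il2 was next, below Il6 with no overlap of their intervals in either library. Csf2 was uneven, with 23 reads in library 1 and 6 in library 2 (0.568 and 0.24 RPM), and its intervals overlapped those of Il2. The other 7 genes, Il3, Il20, Il31, Il19, Il9, Il10 and Il24, lay between 0.0494 and 0.247 RPM in library 1 and between 0.12 and 0.28 RPM in library 2, and their intervals overlapped. The lower of the libraries was 0.0801 RPM at the median gene.

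The sequence features of the 22 summits were compared with those of all shared summits. WGATAR lay within 100 bp of 17 of the 22 (77.3%), against 71.0% of all shared summits and 33.4% of windows of the same length 1 kb to either side of them. In the windows 1 kb beside the 22 summits it lay in 17 of 44 (38.6%). Of the 22, 8 had 2 or more matches, and at 5 summits a match was centred within 10 bp of the summit. The 5 summits without WGATAR were those in intron 3 of Il10, 7146 bp upstream of Il24, 2767 bp beyond and 1783 bp upstream of the start of Csf2, and 26241 bp upstream of Il2. Peaks with and without WGATAR had median heights of 0.938 and 0.815 RPM, against 0.801 and 0.765 RPM over all shared peaks.

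The AP-1 sequence (TGACTCA, or TGAGTCA on the opposite strand) lay at 4 of the 22 summits (18.2%, against 12.3% of all and 3.55% of flanking windows). Beside the 22 summits it lay in 11.4% of windows. At 3 of the 4 WGATAR was present too. The single form AGATAA lay at 6 summits (27.3%, against 40.8% of all). The STAT sequence lay at 3 (13.6%, against 13.1% of all and 15.9% of windows beside the 22). The NFAT core TGGAAA lay at 6 (27.3%, against 18.9% of all and 25% beside the 22). The RUNX sequence (TGTGGT, or TGCGGT as an alternative form) lay at 2 (9.09%, against 18.7% of all and 11.4% beside the 22). With 22 summits these shares differ from those of all summits by a few peaks each, and they were not tested. A match describes letters in a window and does not show a bound site. The promoters of RefSeq (GRCm38.p6, 250 bases before to 50 after a start) hold 8 of the 10 genes, without Il10 and Il24. WGATAR was found in those of Csf2, Il2, Il3 and Il6, against 29.8% of all promoters. The STAT sequence and the NFAT core were each found in 4 of the 8, against 14.6% and 21.4% of all. The RUNX sequence was found in 3 (22.4% of all) and the AP-1 sequence in 2 (5.2% of all). These shares were not tested.

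**Figure D5:**
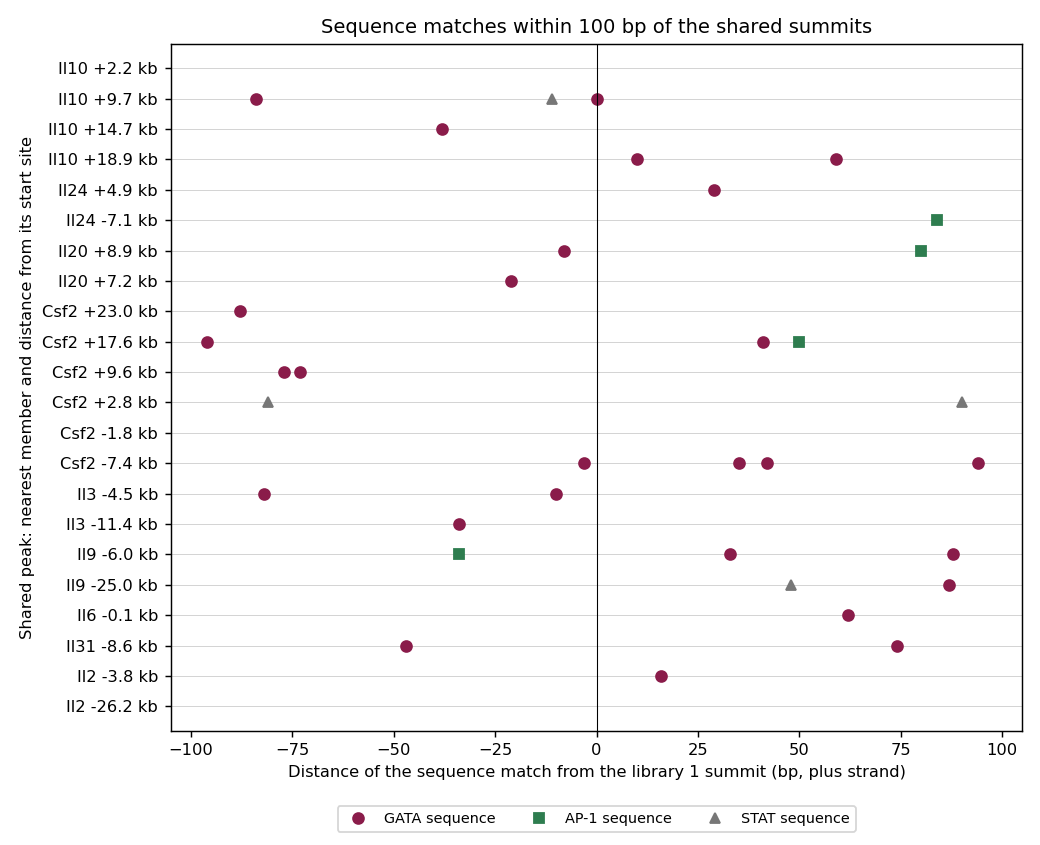
Each row is a shared peak in the same order as in the plot of heights, and each symbol a match to the GATA sequence (circle), the AP-1 sequence (square) or the STAT sequence (triangle), by its distance from the library 1 summit in bp. GATA matches are present at 17 of 22 summits and AP-1 matches at 4, and the rows without a circle are the 5 summits that lack a GATA match.

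The same counts were made for other cytokines, most of them made by T cells, and for the receptors of the 10 cytokines. All 12 other cytokines and 14 of the 17 receptor genes had a shared peak in their region (against 62.1% of all genes), and 6 of 12 and 5 of 17 had one within 2 kb of the start (against 11.7%). The median of the tallest peak per gene was 2.22 RPM over the 10 genes, 1.30 RPM over the other cytokines, 1.48 RPM over the receptors and 0.667 RPM over all genes. Genes without a shared peak count as 0 RPM in these medians, which lowers the values for the receptors and for all genes. Among the other cytokines the tallest were at Il4 and Il13, which share a peak of 5.43 and 5.53 RPM in libraries 1 and 2 that lies 1598 bp upstream of Il13, and in the region of Tnf (3.88 and 3.41 RPM, 27407 bp beyond its start). Among the receptors the tallest were in Il6ra, the IL-6 receptor alpha chain (5.06 and 6.01 RPM), at the start of Il2rb, the IL-2 receptor beta chain (5.01 and 6.73 RPM, 71 bp from the start), and upstream of Il2ra, the IL-2 receptor alpha chain (3.65 and 4.25 RPM). Il3ra, Osmr and Il22ra1 had none. Neighbouring genes share peaks in these counts, among the 10 genes as in the lists, and the medians count such a peak for each gene. Among the 10 genes, 4.05 RPM stands for both Il20 and Il24, and 2.56 RPM for both Il3 and Csf2. Among the other cytokines, 5.43 RPM stands for both Il4 and Il13, and 3.41 RPM for both Tnf and Lta. Medians with each peak counted once were not taken.

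Between the libraries, RPM in 200-bp windows of the 7 loci had a Pearson correlation of 0.870 and a Spearman correlation of 0.655 over 2636 windows, which are not replicates and share their sequence and mappability. Summits of the libraries lay within 100 bp of each other at 16 of the 22 peaks, and at the same position at 7. The largest distance was 300 bp. The ratio of RPM between library 1 and library 2 had a median of 0.993 over the 22 peaks and went from 0.368 at the farther Il9 peak to 1.6.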

How the data were processed

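Gata3 ChIP-seq (ChIPmentation, in which a transposase adds the adaptors to chromatin on the beads) was measured in 2 libraries of 1 condition. According to the methods, single-end reads were mapped by the authors with Bowtie2 (2.3.5.1) to GRCm38, and those lacking a unique position were dropped. The labels also list MACS2 (2.1.2), and no peak list was used here. The deposited files hold a line per read with its position, strand and mapping quality score (22 to 44), which is no measure of binding. In these files 0 reads shared a 5′ end and strand, so a 200-bp window cannot exceed 400 reads.

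Each read was placed 100 bp downstream of its 5′ end. Windows of 200 bp started every 50 bp, and called windows at most 100 bp apart were joined. Peaks were assigned by the library 1 summit. All tests ran over the whole genome. The calling and the test between libraries were tested on simulated data drawn from Poisson and binomial counts. Those data hold no spread beyond counting error, so they could not show how the tests behave where the libraries differ by more. Members and gene lists were chosen with earlier results of these data known. All 10 members are named, with the tallest shared peak of each, and the 3 genes with the tallest peak of each other list. In 5-kb windows the libraries differed beyond counting noise (chi-square over degrees of freedom 1.62). Alternatives were stricter thresholds, other windows, backgrounds, flanks and promoters, a read quality filter, thinning and each library alone. Python 3.11.15, NumPy 2.4.6, SciPy 1.17.1, pandas 2.3.3 and Matplotlib 3.10.9 were used.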

Additional observations from a re-analysis of the deposited data

How the results depend on the processing

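The 22 shared peaks of the 7 loci became 7 at a q of 1e-10, 4 at 5-fold or more over the background, 13 with 100-bp windows, 2 in gene bodies only and 47 with 100 kb either side. All shared peaks of the genome went from 23806 to 5154, 6406 and 16635 under the first 3 of these settings. Taking either library alone gave 23 to 41 peaks, the higher number from library 1, where the genome had 28204 in library 2 and 71726 in library 1. In library 1 alone Il20 had 7, Il19 6, Il9 and Il2 5 each, Il31 4 and Il6 2. The 10 genes with a peak became 7 at a q of 1e-10 (23.8% of all genes), 4 at 5-fold (29.8%) and 2 in gene bodies only (29.4%). The 2 promoters with a peak became 1 at a q of 1e-10, at 5-fold, with 100-bp windows and within 1 kb of the start, 4 with a 50-kb background and from 5 kb upstream to 1 kb downstream, and 2 to 5 with either library alone, 5 in library 1. Among all genes the share was 2.77%, 2.68%, 8.54% and 7.39% in the first 4 of these, 19.6% and 13% in the next 2, and 13.1% and 28.0% in library 2 and library 1 alone. Il6 was among them in each case. Stricter thresholds and smaller regions hold fewer peaks by construction, and for the windows and the background the cause was not tested. AGATAA alone lay at 27.3% of the summits. Libraries correlated at 0.931 over 1-kb windows and at 0.748 on log2(RPM + 0.1), and the cause was not tested. The difference between libraries at the farther Il9 peak passed with either other setting (1 of 22 peaks), against 2.14% of all shared peaks when scaled to reads in shared peaks and 9.27% with 400-bp windows. Of 100 values for single genes, 66 stayed within 1.5 times. Thinning library 1 to the depth of library 2 left 22 peaks, 10 genes and 2 promoters. No paired analysis was possible because the 2 libraries belong to a single condition.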

Other observations

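Beside the shared peaks, 19 peaks of the 7 loci were called in library 1 only and 1 in library 2 only. Those of library 1 were low, between 0.321 and 1.06 RPM, and the same windows held 0.0401 to 0.681 RPM in library 2. RPM was higher in library 1 at 18 of them. That direction follows largely from the selection, since these peaks were called in library 1 only and counted at its summits. Il19 and its neighbours had 6, Il9, Il31 and Il2 had 3 each, Il10 had 2, and Il6 and the Il3 and Csf2 locus had 1 each. Il31 had a peak of library 1 at 30 reads within the gene, 8389 bp beyond its start, where library 2 had 7 reads. Il10 had one 1145 bp upstream of its start, with 23 reads in library 1 and 11 in library 2. The peak of library 2 only lay 20254 bp upstream of Il9, between the gene and the shared peak that was higher in library 2, with 24 reads (0.962 RPM) against 14 reads (0.346 RPM) in library 1.

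Some of the regions hold sequence without reads. The longest stretch without a read start in either library was 6319 bp between Il20 and Il19, from 130919957 to 130926276 on chromosome 1, then 4367 bp beyond the end of Il2 and 3084 bp beyond the end of Il6. At Il10 the longest was 641 bp.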
